A study of Mus musculus with 12 samples.

Results

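Transcripts of 10 inflammasome and interleukin-1 genes were examined in monocytic myeloid-derived suppressor cells (M-MDSCs) of aged and young mice. The genes were the sensors Nlrp3 and Aim2, the adaptor Pycard, the protease gene Casp1, the pore-forming Gsdmd, the cytokine genes Il1b and Il18, the receptor antagonist Il1rn, the decoy receptor Il1r2 and the accessory receptor chain Il1rap. They were taken by name from the 23420 genes of the deposited count table. The rule used none of their values, but earlier results of these data were known when they were chosen. All 10 had enough counts to be tested. RNA came from CD11b+Ly6G-Ly6Chi cells sorted from tibial bone marrow of male C57BL/6JNIA mice for which no treatment is given, 6 aged mice of 24 months and 6 young mice of 6 months, and each mouse gave 1 library. The cells were defined by surface markers only, so that any cell in the gate contributed RNA, and in such bulk samples fewer cells of a type and less RNA per cell cannot be told apart.

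An inflammasome is a complex that forms in the cytosol of myeloid cells after a sensor such as NLRP3 or AIM2 detects danger or foreign DNA. The sensor recruits ASC, the product of Pycard, which gathers caspase-1, and caspase-1 cleaves pro-interleukin-1β and pro-interleukin-18 to their active forms and gasdermin D to a fragment that forms pores in the plasma membrane. Released interleukin-1β acts through a receptor made of the interleukin-1 receptor and the accessory chain encoded by Il1rap, and it is held back by the antagonist encoded by Il1rn and by the decoy receptor encoded by Il1r2. The transcript level of these genes does not measure the assembly of the complex or the cleavage of its substrates.

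Library totals ranged from 8737941 to 16300374 fragments in aged mice and from 4613239 to 9079237 in young mice. The sorted cells carried the markers of the gate, with Itgam (CD11b) at 2660.3 to 3543 CPM (the count scaled to the normalized library total) and Ly6c2 at 367 to 799 CPM over all 12 mice, whereas the monocyte receptor gene Ccr2 was at 5.03 to 62.0 CPM. Both gate markers were themselves called between the ages, Ly6c2 higher in aged mice without overlap (605 to 799 against 367 to 595 CPM, log2 fold change 0.54) and Itgam lower (log2 fold change -0.22). Neutrophil granule genes were far more abundant, with Ngp at 24875 to 44393 CPM. The summed level of 12 neutrophil markers was 142366 to 167591 CPM in aged mice and 91665 to 140956 CPM in young mice. Of the 12, 7 were called higher in aged mice, against 22.4% of all genes tested. The cells are therefore called M-MDSCs here only after their sort. Of the 12 neutrophil markers, S100a8, S100a9, Cxcr2, Retnlg and Stfa2l1 were also in the authors' M-MDSC score. Mean S100a8 was 35816 CPM in aged and 21062 in young mice, and mean S100a9 was 21459 and 13744. Of the defining neutrophil markers, Retnlg and Ngp were called higher (log2 fold changes of 0.55 and 0.36). Ltf and Cxcr2 were not called (-0.056 and 0.25). The summed level of 10 resident macrophage markers was 602 to 1659 CPM in aged mice and 395 to 551 CPM in young mice. Of the tested markers 9 of 9 were called higher, against 22.4% of all genes tested, with a median log2 fold change of 2.72. Outside aged replicate 1 most of the sum was Slc40a1 (443 to 609 CPM in aged and 343 to 505 CPM in young mice), with a log2 fold change of 0.31, while C1qa was at 5.18 to 84.7 CPM in aged and 1.76 to 3.86 CPM in young mice. Aged replicate 1 carried the highest macrophage sum, 1659 CPM, while the other aged mice were at 602 to 848 CPM. Defining markers of dendritic, B, T and natural killer cells and of basophils (Flt3, Zbtb46, Siglech, Cd79a, Pax5, Cd3e, Ncr1, Mcpt8 and Ms4a2) stayed at or below 27 counts in every mouse. Other markers on these lists were present, with Cd3d at 41 to 109 counts, Igj at 42 to 566 counts and Cd4 at up to 227 counts. Of the dendritic cell markers, 4 were tested, and Cd74, H2-Aa and H2-Ab1 were called higher in aged mice (log2 fold changes of 2.15, 2.36 and 2.30) and Clec9a was called lower. Young replicates 5 and 6 stood apart from the other young mice, at 15.5 and 16.9 on the first principal component within that age against -11.2 to -5.78. The same mice had the highest summed level of 10 proliferation markers, 1469 and 1446 CPM against 788 to 977 CPM in the other young mice. Of these markers 3 of 10 were called lower in aged mice, against 23% of all genes tested, and the median log2 fold change was -0.087. Among the 3 was Mki67 at 63.5 to 173 CPM in aged and 229 to 674 CPM in young mice. Ccnb1 and Ccnb2 had log2 fold changes of 0.17 and 0.084 and were not called. Of 7 tested markers of nonclassical monocytes 4 were called lower and 1 higher (23% and 22.4% of all genes tested). Aged replicate 1 lay at -25.3 on the component within the aged mice against -9.55 to 16.6. The part of these differences in the results was not tested, and values without these mice are given where they changed a call.

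With edgeR's quasi-likelihood test, 3 of the 10 genes were called different between the ages (adjusted p under 0.05), against 45.4% of the 9742 genes tested. Nlrp3 was 1.80-fold lower in aged M-MDSCs, Pycard was 1.65-fold higher and Il1rap was 1.35-fold higher. The 2 genes called higher stand beside 22.4% of all genes tested, and the 1 called lower stands beside 23%. Casp1, Gsdmd, Il1b, Il1rn, Il1r2, Il18 and Aim2 did not pass the test. The values of the ages did not overlap for Nlrp3 and Pycard, 2 of the 10 genes, against 21.8% of all genes tested (9.68% higher and 12.1% lower in aged mice). The share of genes called was thus not above that of the whole table, and the results below concern the single genes.

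**Figure D1:**
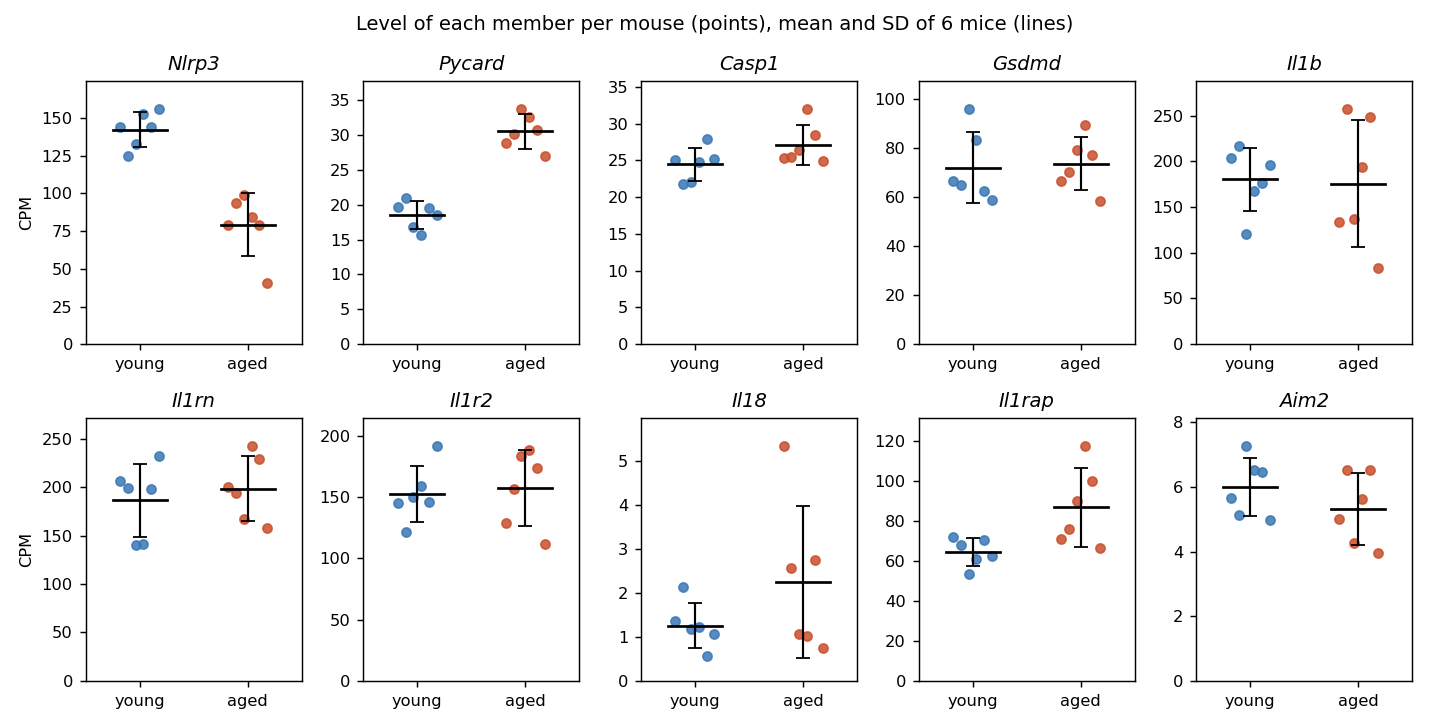
Level of each of the 10 genes in CPM (linear axes starting at 0) in 6 young and 6 aged mice, with 1 point per mouse, a line for the mean and bars for the SD. The aged points lie below all young points for Nlrp3 (40.5 to 99.0 against 125 to 156 CPM) and above all young points for Pycard (26.9 to 33.7 against 15.6 to 21.0 CPM), and the ages overlap for the other 8 genes.

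The promoter windows of the 3 genes called different are shown because the genes moved in different directions between the ages. The sequences are those of RefSeq on GRCm38.p6, 250 bases before to 50 bases after the start site, printed 5′ to 3′ on the strand of the gene. They lie at chr11:59542436-59542735 on the plus strand for Nlrp3, at chr7:127993818-127994117 on the minus strand for Pycard and at chr16:26581455-26581754 on the plus strand for Il1rap, and each start site is the gene start of the deposited table. Capitals mark the letters GAGGAAG on either strand, a core like that bound by the myeloid ETS factor PU.1.

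Nlrp3: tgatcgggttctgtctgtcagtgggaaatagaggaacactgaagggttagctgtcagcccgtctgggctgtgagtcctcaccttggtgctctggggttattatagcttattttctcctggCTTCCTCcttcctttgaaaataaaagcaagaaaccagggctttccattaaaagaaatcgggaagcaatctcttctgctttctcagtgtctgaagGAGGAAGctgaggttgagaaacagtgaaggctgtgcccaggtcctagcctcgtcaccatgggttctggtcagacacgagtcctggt

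Pycard: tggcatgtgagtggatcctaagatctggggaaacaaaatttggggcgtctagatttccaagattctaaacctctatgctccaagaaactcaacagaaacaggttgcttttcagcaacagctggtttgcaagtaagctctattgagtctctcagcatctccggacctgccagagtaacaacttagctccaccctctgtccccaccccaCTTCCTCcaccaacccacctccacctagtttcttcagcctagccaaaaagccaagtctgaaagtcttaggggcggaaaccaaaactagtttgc

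Il1rap: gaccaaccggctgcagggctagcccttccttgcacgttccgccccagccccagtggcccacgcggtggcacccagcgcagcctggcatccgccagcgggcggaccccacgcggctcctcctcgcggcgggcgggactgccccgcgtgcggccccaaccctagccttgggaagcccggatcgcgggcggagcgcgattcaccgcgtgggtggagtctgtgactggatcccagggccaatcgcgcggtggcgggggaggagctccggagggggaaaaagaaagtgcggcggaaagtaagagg

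The Nlrp3 window held GAGGAAG at -130 to -124, on the opposite strand, and at -36 to -30, counted from the start site as base 1 with no base 0. The Pycard window held it at -43 to -37, on the opposite strand, and the Il1rap window did not hold these letters. Among the 9 of 10 genes matched in the RefSeq table, the Aim2 window held it at -113 to -107, and 13.6% of all 32851 promoter windows of that length held it. The letters TTGCNNAA, like those bound by C/EBP factors, were found in 10.8% of all windows and, of these genes, at -142 to -135 of Pycard. A loose form of the NF-κB motif, GGG and CC set 5 bases apart, was found in 50.8% of all windows. At the deposited gene starts it was found at -8 to 2 of Nlrp3, at 6 partly overlapping places of Il1rap, and in the genes not called at -158 to -149 of Casp1 and at -54 to -45 and -4 to 6 of Il1rn. Both strands were searched for each motif, and a match describes the letters only.

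Nlrp3, the sensor that answers to potassium efflux, crystals and other cell damage, lies on chromosome 11 of mm10 at 59542686 to 59566956 and was counted over 10 exon blocks with a summed length of 4021 bases. In aged mice it was at 40.5 CPM in the lowest, 82.0 in the median and 99.0 in the highest mouse, and it was at 125, 144 and 156 CPM in the young mice. Every aged mouse was below every young mouse, and the counts behind these values were 647 to 926 in aged and 582 to 1497 in young mice. The median library total was lower in young mice (8503571 against 10384679 fragments), although the totals of the ages overlapped. Young mice had a mean of 142 ± 11.8 CPM (SD, n = 6) and aged mice one of 79.4 ± 20.6 CPM (SD, n = 6). Aged minus young, the log2 fold change was -0.85 (SE 0.157, 95% interval -1.18 to -0.51, adjusted p = 7.29e-04 with edgeR). Aged replicate 7 was at 40.5 CPM, and the next aged mouse was at 79.1 CPM. Without aged replicate 7 the log2 fold change was -0.71, and the gene was still called.

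Aim2, the sensor of double-stranded DNA in the cytosol, lies on chromosome 1 at 173420604 to 173466036 and was expressed at a low level. It was at 3.95, 5.33 and 6.53 CPM in the lowest, median and highest aged mouse and at 4.97, 6.07 and 7.27 CPM in the young mice. The ages overlapped over most of their range, and the log2 fold change was -0.19 (SE 0.163, 95% interval -0.54 to 0.15, adjusted p = 0.351 with edgeR). Aim2 was thus not called.

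Pycard, which encodes the adaptor ASC that links the sensors to caspase-1, lies on chromosome 7 at 127991373 to 127993867 on the minus strand, with 3 exon blocks. It was at 26.9, 30.4 and 33.7 CPM in the lowest, median and highest aged mouse and at 15.6, 19.1 and 21.0 CPM in the young mice. Every aged mouse was above every young mouse, with 258 to 430 counts in aged and 98 to 169 in young mice. The mean was 30.5 ± 2.46 CPM (SD, n = 6) in aged and 18.5 ± 2.01 CPM (SD, n = 6) in young animals. This gave a log2 fold change of 0.72 (SE 0.0903, 95% interval 0.53 to 0.92, adjusted p = 4.75e-05 with edgeR). Its p-value was at rank 155 of the 9742 genes, ahead of that of Nlrp3 at rank 926. The young replicates 5 and 6, which stood apart, were at the lowest levels of the young mice, 16.8 and 15.6 CPM, and without them the log2 fold change was 0.61, still called.

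Sensor and adaptor were also set against each other as a ratio within each library, which does not depend on scaling between libraries. The ratio uses the same counts and cannot show by itself which gene changed. From 5.94 to 9.78 Nlrp3 fragments per Pycard fragment (median 7.64) were counted in young mice, and 1.505 to 3.11 (median 2.67) in aged mice. This ratio was formed after both genes had been seen to differ and is given as a description without a test.

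**Figure D2:**
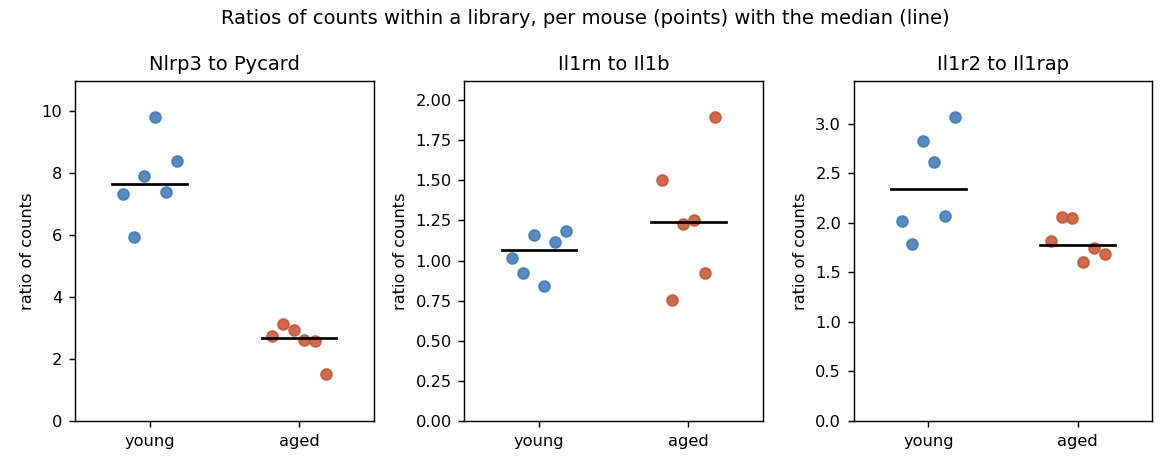
Ratio of the counts of 2 genes within a library (linear axes starting at 0) in 6 young and 6 aged mice, with 1 point per mouse and a line for the median. Nlrp3 to Pycard runs from 5.94 to 9.78 in young and from 1.505 to 3.11 in aged mice, while the Il1rn to Il1b and the Il1r2 to Il1rap ratios overlap between the ages.

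Casp1, which encodes the protease of the complex, lies on chromosome 9 at 5298517 to 5307281. It was at 24.997, 25.9 and 32.0 CPM in the lowest, median and highest aged mouse and at 21.9, 24.9 and 28.0 CPM in the young mice. The ages overlapped, and the log2 fold change was 0.14 (SE 0.0885, 95% interval -0.046 to 0.33, adjusted p = 0.200 with edgeR). Gsdmd, whose product is cut by caspase-1 and forms the pore of pyroptosis, lies on chromosome 15 at 75862339 to 75867404. It was at 58.5, 73.6 and 89.3 CPM in the aged mice and at 58.8, 65.6 and 95.7 CPM in the young mice. The highest young values belonged to replicates 5 and 6, at 95.7 and 83.1 CPM, and the other young mice were at 58.8 to 66.4 CPM. For Gsdmd the log2 fold change was 0.027 (SE 0.126, 95% interval -0.24 to 0.30, adjusted p = 0.876 with edgeR), and it was 0.20 without these mice, which was not called either. The sign of both values turned with a correction for gene length, and that of Gsdmd also under other settings, so no direction was read from them.

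Il1b, which encodes the main cytokine activated by the complex, lies on chromosome 2 at 129364580 to 129371120 on the minus strand. It was at 83.2, 165 and 257 CPM in the lowest, median and highest aged mouse and at 121, 187 and 216 CPM in the young mice. The aged mice spread over a wider range than the young mice, and both the lowest and the highest value of all 12 mice were found among them. The mean was 175 ± 69.4 CPM (SD, n = 6) in aged and 180.2 ± 34.1 CPM (SD, n = 6) in young mice, and the log2 fold change was -0.040 (SE 0.228, 95% interval -0.52 to 0.44, adjusted p = 0.900 with edgeR). Changes within these bounds could not be told from no change.

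Il18, which encodes the other cytokine matured by caspase-1, lies on chromosome 9 at 50565368 to 50581837 and gave few counts, 10 to 48 in aged and 5 to 12 in young mice. It was at 0.752, 1.82 and 5.35 CPM in the lowest, median and highest aged mouse and at 0.578, 1.21 and 2.14 CPM in the young mice. The highest value belonged to aged replicate 1, which also had the highest summed level of resident macrophage markers, and 3 aged mice lay within the young range. That mouse also had the highest sum of dendritic cell markers, 1032 CPM against 56.9 to 352 in the other aged mice, made up by Cd74, H2-Aa and H2-Ab1, whereas Flt3, Zbtb46 and Siglech were at 0 to 4 counts in aged mice. Its log2 fold change was 0.85 (SE 0.470, 95% interval -0.15 to 1.85, adjusted p = 0.149 with edgeR). It was 0.39 without aged replicate 1 (adjusted p = 0.444) and 1.06 without aged replicate 7 (adjusted p = 0.0558), and it was not called in either case.

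Il1rn, which encodes a ligand that occupies the interleukin-1 receptor without a signal, lies on chromosome 2 at 24336860 to 24351491. It was at 157, 197 and 242 CPM in the lowest, median and highest aged mouse and at 140.1, 198 and 232 CPM in the young mice. The lowest young values were those of replicates 5 and 6, at 140.1 and 141 CPM, and the other young mice were at 198 to 232 CPM. Over all mice the log2 fold change was 0.092 (SE 0.136, 95% interval -0.20 to 0.38, adjusted p = 0.603 with edgeR), and it was -0.097 without these mice and not called. Il1r2, whose product binds interleukin-1 without passing on a signal, lies on chromosome 1 at 40084768 to 40125226. It was at 112, 165 and 189 CPM in the aged mice and at 122, 148 and 192 CPM in the young mice. The ages covered nearly the same range, and the log2 fold change was 0.042 (SE 0.130, 95% interval -0.23 to 0.32, adjusted p = 0.814 with edgeR).

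Il1rap, which encodes the chain that the receptors for interleukin-1, interleukin-33 and interleukin-36 share, lies on chromosome 16 at 26581705 to 26725147 and was counted over 12 exon blocks of 8486 bases. It was at 66.3, 82.9 and 118 CPM in the lowest, median and highest aged mouse and at 53.3, 65.4 and 72.1 CPM in the young mice. The upper aged mice were well above the young mice, while the aged replicates 1 and 7, at 71.0 and 66.3 CPM, lay within the young range. The mean was 86.8 ± 19.5 CPM (SD, n = 6) in aged and 64.6 ± 7.07 CPM (SD, n = 6) in young mice, and the log2 fold change was 0.43 (SE 0.129, 95% interval 0.15 to 0.70, adjusted p = 0.0144 with edgeR). The call was lost without young replicates 5 and 6 (log2 fold change 0.32, adjusted p = 0.0871), which with 53.3 and 61.0 CPM were the lowest young mice. With a correction for gene length the log2 fold change was 0.87, for a gene whose exons are the longest of the 10.

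**Figure D3:**
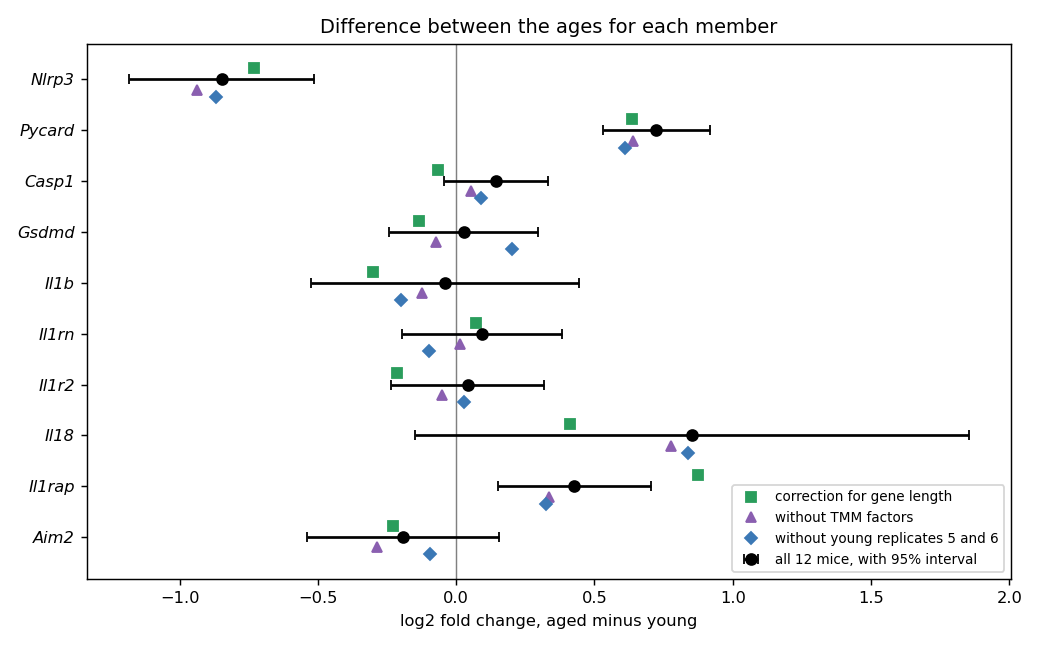
Log2 fold change, aged minus young, of each of the 10 genes. Black points with 95% intervals are the fit to all 12 mice, and the squares, triangles and diamonds are the values with a correction for gene length, without TMM factors and without young replicates 5 and 6. The intervals of Nlrp3, Pycard and Il1rap lie clear of 0 on the same side as the other points, while Casp1, Gsdmd, Il1rn and Il1r2 have points on both sides of 0.

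As 2 ratios of counts within a library, the antagonist gene was set against the agonist gene and the decoy receptor gene against the accessory chain gene. The Il1rn to Il1b ratio was 0.755, 1.24 and 1.89 in the lowest, median and highest aged mouse and 0.843, 1.07 and 1.18 in the young mice. The mean log2 ratio was higher by 0.22 in aged mice (exact two-sided permutation test, p = 0.314, adjusted p = 0.314 over the 2 ratios), and the aged mice reached both lower and higher ratios than the young mice. The difference was 0.091 without aged replicate 7 and 0.36 without aged replicate 2, and it did not pass the test in either case. The Il1r2 to Il1rap ratio was 1.60, 1.78 and 2.06 in the aged mice and 1.78, 2.34 and 3.06 in the young mice. The mean log2 ratio differed by -0.37 (exact two-sided permutation test, p = 0.0303, adjusted p = 0.0606 over the 2 ratios), which did not pass the threshold after adjustment. The smallest p this design allows is 0.00216. Without young replicate 2 the difference was -0.45 and its adjusted p was 0.0346 by the exact permutation test. This was the only 1 of 12 exclusions of a single mouse to pass, and the adjusted p of the same test reached 0.121 in the others. After thinning to the smallest library the difference was -0.31, with an adjusted p of 0.117 by that test.

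Levels of different genes were compared per kilobase of exon length. In both ages Il1b was the highest of the 10 genes, with a mean of 132 CPM per kb in aged and 136 in young mice, above 95.8% of all genes tested. It was followed by Il1r2 (117 and 113 CPM per kb), Il1rn (73.7 and 69.2), Gsdmd (41.4 and 40.5), Nlrp3 (19.7 and 35.4), Casp1 (17.9 and 16.2), Pycard (14.3 and 8.69) and Il1rap (10.2 and 7.62). Il18 (2.60 and 1.46) and Aim2 (2.10 and 2.37) were the lowest and exchanged places between the ages. The ranges over mice overlapped in both ages for Il1b with Il1r2, for Pycard with Il1rap and for Il18 with Aim2. Within the same library, however, Pycard was above Il1rap in 12 of 12 mice, while Il1b was above Il1r2 in 9 of 12 and Il18 above Aim2 in 4 of 12. The ranges of Il1r2 (83.3 to 140.3 CPM per kb) and Il1rn (58.5 to 90.1) overlapped in aged mice, although Il1r2 was above Il1rn in 12 of 12 libraries, and those of Il1rn (52.1 to 86.4) and Gsdmd (33.1 to 53.9) overlapped in young mice, with Il1rn above Gsdmd in 11 of 12 libraries. In aged mice the ranges of Nlrp3 (10.1 to 24.6 CPM per kb) and Casp1 (16.5 to 21.1) overlapped, while in young mice Nlrp3 (31.0 to 38.8) was clear of Casp1 (14.4 to 18.5) and overlapped Gsdmd (33.1 to 53.9).

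Among the aged mice, replicate 7 was at the lowest level of all 10 genes, including Pycard, which was higher in aged mice as a group. Its log2 CPM was 0.91 below the mean of the aged mice for Nlrp3 but 0.17 below it for Pycard and 0.11 below it for Casp1. The library of this mouse had the largest total, 16300374 fragments, and the highest summed level of 10 proliferation markers, 1000.3 CPM against 469.7 to 679.6 in the other aged mice, and the part of these in its low levels was not tested. Il1b spread widely over the aged mice, with 257 and 248 CPM in aged replicates 2 and 6 and 133 and 136 CPM in aged replicates 1 and 4.

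**Figure D4:**
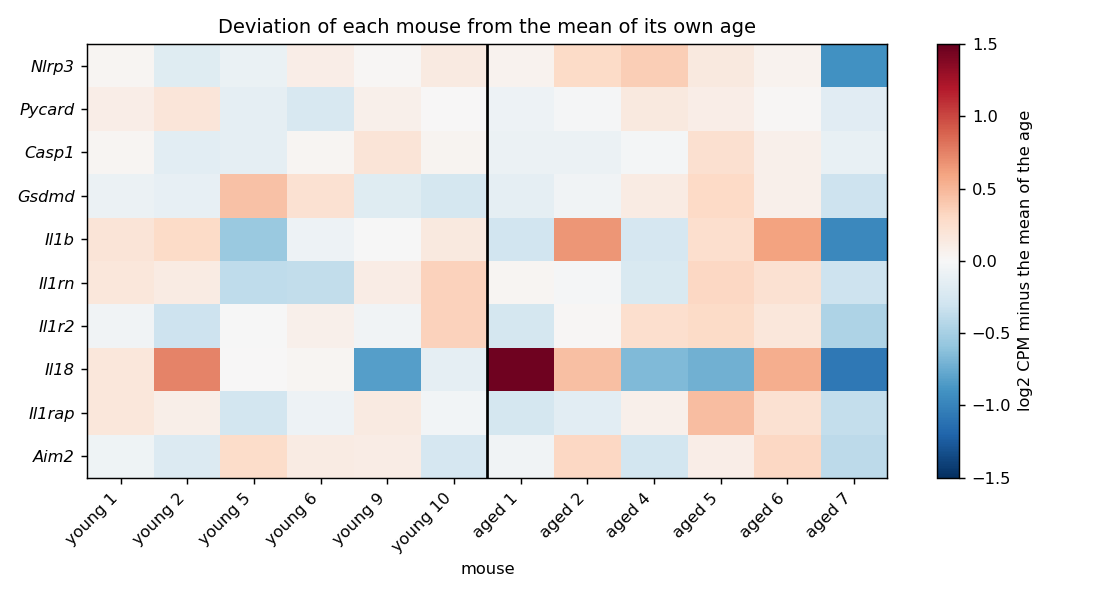
Deviation of each mouse from the mean of its own age in log2 CPM (colour, blue below and red above) for the 10 genes (rows) in 6 young and 6 aged mice (columns). Aged replicate 7 is below the mean of the aged mice for all 10 genes, and aged replicate 1 stands out for Il18, at 5.35 CPM.

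For each gene the 2 genes of closest pattern were sought among at least 7805 tested genes with a mean of at least 5 CPM, by Pearson's r of the deviations from the mean of each age over the 12 mice, as a description that carries no test. The closest to Nlrp3 were Prpsap1 (r = 0.92) and Tmem203 (r = 0.89), and those to Pycard were Apbb1ip (r = 0.98) and Kdm4a (r = 0.97). Il1b was followed most closely by Irf1 (r = 0.92) and Arrdc4 (r = 0.92), and Il1rn by Fopnl (r = 0.96) and Cd9 (r = 0.96). Il18 was followed by Igf1 (r = 0.93) and Cd163 (r = 0.89), the latter a scavenger receptor gene of macrophages. The closest genes were Gpank1 (r = 0.95) and Evi2a (r = 0.89) for Casp1, Uba7 (r = 0.97) and E4f1 (r = 0.96) for Gsdmd, Arhgap9 (r = 0.89) for Il1r2, Zbtb22 (r = 0.97) and Akt1s1 (r = 0.93) for Il1rap, and Wsb1 (r = 0.88) and Nfkbid (r = 0.82) for Aim2. Between the 10 genes themselves, r ran from -0.43 for Casp1 with Il18 to 0.77 for Casp1 with Il1rap, and it was 0.75 for Nlrp3 with Il1r2 and 0.68 for Il1b with Il1rn. All of these values share the libraries and their depth.

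Of 24 other inflammasome genes, 19 were tested, and 3 were called higher and 2 lower in aged mice (22.4% and 23% of all genes tested), with a median log2 fold change of 0.054 beside 0.0062 for all genes tested. Zbp1, a sensor of nucleic acid in the Z form, was at 16.7 ± 7.496 CPM in aged and 7.56 ± 1.95 CPM in young mice (SD, n = 6 each), a log2 fold change of 1.18 (SE 0.252, adjusted p = 0.00184 with edgeR). Casp4, which encodes the caspase that binds bacterial lipopolysaccharide and cuts gasdermin D, was at 21.0 to 32.1 CPM in aged and 16.6 to 20.1 CPM in young mice without overlap (log2 fold change 0.43), but it was not called with a correction for gene length (log2 fold change 0.20, adjusted p = 0.129). Nek7, whose product binds NLRP3 and is required for its activation, was likewise higher without overlap, at 79.2 to 95.6 against 56.6 to 75.8 CPM (log2 fold change 0.34). Nek7 and Pycard thus rose in the same libraries in which Nlrp3 fell. Nlrp1a, another sensor, fell by 0.70 on the log2 scale, at 4.45 to 6.41 CPM in aged and 7.54 to 10.7 CPM in young mice. Naip6, of the family that detects flagellin, fell by 0.66 on the log2 scale, and its call was lost without young replicates 5 and 6 (log2 fold change -0.32, adjusted p = 0.297) and without aged replicate 2, 5 or 6 or young replicate 5 or 6 alone. Values of -0.53 were found for Naip5 (adjusted p = 0.0582) and of 0.58 for Ninj1 (adjusted p = 0.0551), which encodes the protein that ruptures the membrane in lytic death, and neither was called. Naip5 was called without young replicate 1, 2, 9 or 10, and Ninj1 without young replicate 2 or aged replicate 7, the latter with a log2 fold change of 0.74 (adjusted p = 0.00560). Naip5 was also called in 2 and Ninj1 in 6 of 10 other settings.

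Of 25 other genes of the interleukin-1 family, its receptors and its signalling, 19 were tested, 1 was called higher and 3 were called lower (22.4% and 23% of all genes tested), with a median of -0.096. Myd88, which encodes the adaptor of the receptors, was higher, at 146 to 223 CPM in aged and 109 to 152 CPM in young mice (log2 fold change 0.46, adjusted p = 0.00208 with edgeR). Irak3, which encodes an inhibitor of the kinases downstream of MyD88, was lower without overlap, at 108 to 121.7 against 122.1 to 141 CPM (log2 fold change -0.28). Il18r1, which encodes the receptor chain that binds interleukin-18, fell from 43.6 ± 5.04 to 29.3 ± 7.10 CPM (SD, n = 6 each), a log2 fold change of -0.57 (SE 0.138, adjusted p = 0.00386). Tab2, which encodes an adaptor of the kinase TAK1, fell by 0.18 on the log2 scale, a call that was lost without aged replicate 1, 2, 5 or 6 and without young replicate 5, 6 or 10. Il1r1, the signalling receptor of interleukin-1, was at 0.473 to 1.71 CPM in aged and 1.07 to 1.97 CPM in young mice and was not called (log2 fold change -0.52, adjusted p = 0.184), and Il1rl2 was not called either (log2 fold change -0.38). Tollip (log2 fold change 0.17) and Traf6 (0.17), which encode further signalling proteins, were not called, but with a correction for gene length both were (0.25 and 0.40, adjusted p = 0.0201 and 0.00344). Il33 had 0 counts in every mouse.

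Of 12 genes that interleukin-1 is known to induce, 8 were tested, 1 was called higher and 2 were called lower (22.4% and 23% of all genes tested), with a median of -0.17. The values of the ages did not overlap for 3 of the 8 genes, against 21.8% of all genes tested. Ptgs2, which encodes the inducible cyclooxygenase, was at 9.46 to 33.0 CPM in aged and 50.4 to 97.4 CPM in young mice without overlap, a log2 fold change of -1.62 (SE 0.261, adjusted p = 2.83e-04 with edgeR). Nfkbiz, an NF-κB cofactor gene, was at 146 to 219.96 CPM in aged and 243 to 427 CPM in young mice, also without overlap (log2 fold change -0.68). Icam1, an adhesion molecule gene, was higher, at 5.03 to 13.5 against 3.24 to 4.10 CPM (log2 fold change 1.04). The log2 fold change was 0.25 for Nfkbia, -0.099 for Tnfaip3, -0.24 for Zc3h12a, -0.068 for Irak2 and -0.73 for Cxcl2, and none of these was called. Cxcl1 and Il6 had 0 counts in every mouse. Many of these genes are also induced by other signals.

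**Figure D5:**
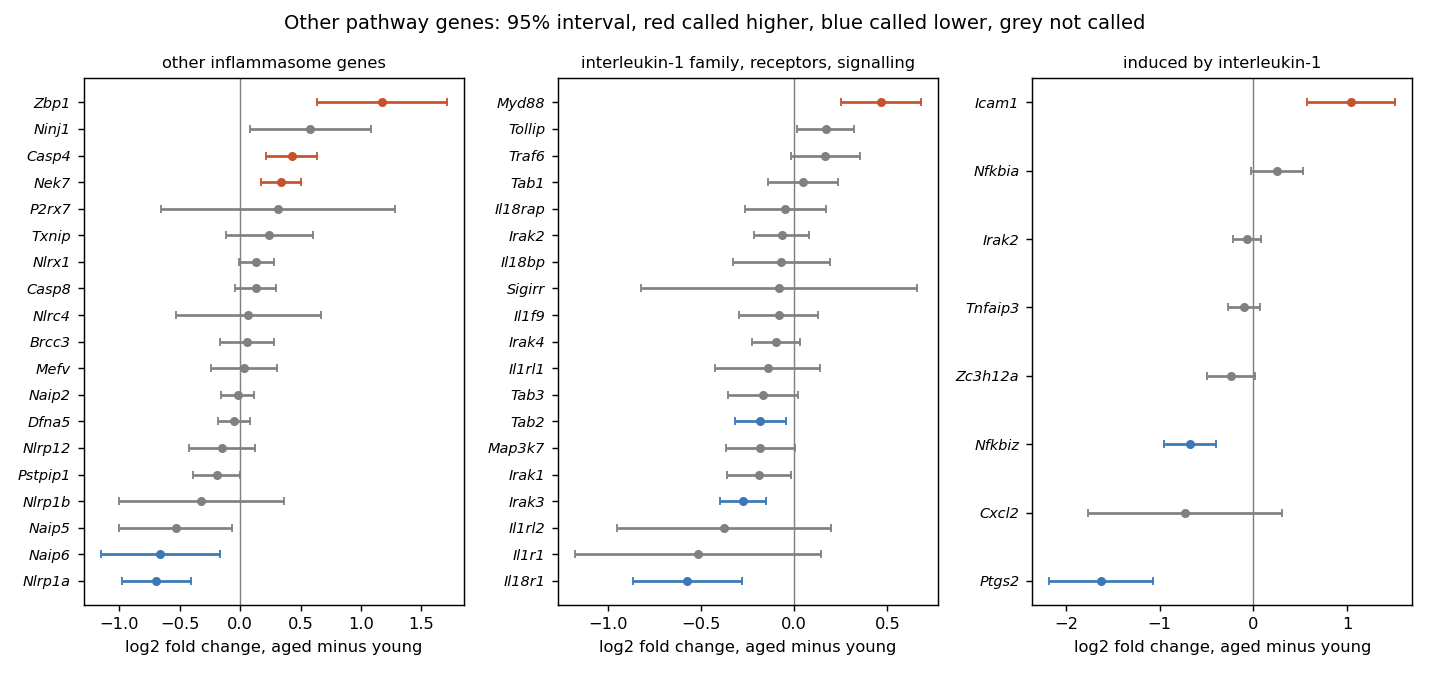
Log2 fold change, aged minus young, with 95% interval, of the tested genes of 3 lists: 19 other inflammasome genes, 19 genes of the interleukin-1 family, its receptors and signalling, and 8 genes induced by interleukin-1. Genes called higher are red, genes called lower are blue and the others are grey, and Ptgs2 lies farthest below 0 at -1.62.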

How the data were processed

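RNA of M-MDSCs from 12 mice was sequenced by the authors as stranded, paired libraries on a NovaSeq instrument. The deposited table holds raw counts of fragments per gene, made by the authors with featureCounts 2.0.0 (file header) on exons of a UCSC annotation of mm10, reverse-stranded, in pairs and with 60 as the lowest mapping quality accepted, which removes fragments that fit several places. The aligner is not given in the sources used here. No exon of the 10 genes overlaps another gene's exon on either strand. All 12 count columns were used, and groups came from the sample titles. Counts were tested as deposited with edgeR 4.0.16 in R 4.3.3 (filterByExpr, TMM factors of 0.919 to 1.10, quasi-likelihood test, Benjamini-Hochberg adjustment over all 9742 genes tested, threshold 0.05). The biological coefficient of variation was 15.7%. CPM are counts scaled by the TMM-normalized library total. Standard errors were derived from the F statistic. Ratios were compared with exact permutation tests over mice (scipy 1.17.1). The lowest chi-square per gene between mice of the same age was 1.72, for young replicates 1 and 2, so no library was a copy of another. Each mouse was counted as a replicate, but this value does not show that the mice are independent. Young replicates 9 and 10 (2.65) and 5 and 6 (4.14) were also close. Between replicates 5 or 6 and the other young mice it was 22.4 to 38.1. The smaller young libraries limit precision for genes of few counts, such as Il18.

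The 10 genes and the lists were chosen with earlier results of these data known. Named genes were the 10, the 3 largest rises, 3 largest falls and 2 smallest p-values of each list, every tested gene of a list with 12 or fewer tested, and the 2 genes of closest pattern. Nek7 and Tab2, which were called, and the markers were named after their values were seen. A gene of closest pattern and a marker are not reported here. Symbols of the table that are older, such as Dfna5 for Gsdme, were matched through RefSeq synonyms. Motifs and promoters came from the RefSeq table of GRCm38.p6, and Gsdmd had no entry. The alternatives were DESeq2 1.42.0, limma-voom 3.58.1, no TMM factors, upper quartile normalization, no filter, a minimum of 10 counts in every mouse, a correction for gene length, thinning to the smallest library, a replicate block and leaving out each mouse. Leaving out young replicates 5 and 6 together was added after seeing the data. The tests were checked on simulated data. Sample numbers in the column names ran from 11 to 16 for young and from 17 to 26 for aged mice, so a batch that followed them cannot be told apart from age.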

Additional observations from a re-analysis of the deposited data

Results flagged for a closer look

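The Nlrp3 level of aged replicate 7, 40.5 CPM, was far from those of the other aged mice, of which the nearest was at 79.1 CPM. The gap took 0.660 of the range of the aged mice, above Dixon's 95% critical value for 6 values. It was the only such value among 24 groups of 6 mice (10 genes and 2 ratios, in each age), and chance gives about 1 in 20. Nlrp3 was called lower with and without this mouse.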

How the results depend on the processing

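Nlrp3 and Pycard were called in the same direction in all 12 fits without 1 mouse and in all 10 other settings, with log2 fold changes of -0.94 to -0.71 for Nlrp3 and 0.61 to 0.76 for Pycard. Il1rap was called in all 12 fits without 1 mouse (0.32 to 0.50) and in 8 of 10 other settings. Without young replicates 5 and 6, Il1rap was not called (0.32, adjusted p = 0.0871), which left 1 of the 10 genes called higher, 1392 genes of the whole table were called higher, Il1rn turned to -0.097 and Cxcl2 to 0.022. Without TMM factors, Gsdmd turned to -0.075 and Il1r2 to -0.050, the median of all genes moved to -0.081, and 1682 genes were called higher and 2762 lower, against 2185 and 2240. The correction for gene length turned Casp1 to -0.066, Gsdmd to -0.14, Il1r2 to -0.21 and Tnfaip3 to 0.067. With it Casp4, Naip6 and Tab2 were not called, and Traf6 and Tollip were called higher. Without TMM factors, further list genes were called lower, among them Naip5 and Zc3h12a. The genes called lower then numbered 5 other inflammasome genes, 7 of the interleukin-1 family list and 3 induced genes, against 2, 3 and 2 with the factors. These counts stand beside 28.4% of all genes tested called lower in that setting. Ninj1 was called higher with DESeq2, upper quartile normalization, no filter, a minimum of 10 counts and thinning, and Tollip with upper quartile normalization, a minimum of 10 counts and thinning. Tab2 was not called with upper quartile normalization or no filter. With single mice left out, the sign turned for Il1b (-0.17 to 0.11), Gsdmd (-0.035 to 0.13) and Il1r2 (-0.015 to 0.13), none of them called, and the Il1r2 to Il1rap ratio differed by -0.45 to -0.29. The cause of these changes was not tested. Il18 had too few counts to be tested with a minimum of 10 counts or after thinning, and it was not called in the other settings.

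With a replicate block on the numbers 1, 2, 5 and 6 that both ages share in the labels (8 mice), Il1rap was not called (log2 fold change 0.49, adjusted p = 0.0773), which left 1 of the 10 genes called higher, Nlrp1a and Naip6 were not called (adjusted p = 0.0562 and 0.0545), Ninj1 and Naip5 were called (0.95 and -0.74, adjusted p = 0.0145 and 0.0217), Gsdmd turned to -0.037 and Il1b to 0.22. Mice of the same number were different animals, and their deviations across genes correlated at -0.246 to -0.0655, so the numbers do not pair them. The block called 1586 genes higher and 1860 lower.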
